A study of Arabidopsis thaliana with 36 samples.

Results

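The 49 genes described here rose in roots of Landsberg *erecta* (L*er*, the wild-type) within 1 h on salt and were back near their mock level at 8 h. They were chosen by the L*er* libraries themselves, out of 28775 genes in the count table. A gene was taken when log2((mean salt CPM + 0.5)/(mean mock CPM + 0.5)) in L*er* was at least 1.5 at 1 h and between -0.3 and 0.3 at 8 h, with a mean of at least 5 CPM on salt at 1 h. CPM is the count of a gene scaled to the total count of its library. The rise and the return in L*er* are therefore how the genes were selected and are given as a description with no test. The tests below compare groups of *della5x*, *gai* and *ga4*, whose libraries had no part in the choice. In the fits of a single time, the L*er* libraries enter no tested contrast but share the estimate of the spread.

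The study sequenced RNA of the lowermost root segment of seedlings aged 5 d, many pooled for each sample, after transfer to 140 mM NaCl or mock medium. L*er* and *della5x* were sampled after 1 h and 8 h. According to the paper, all samples were harvested at a common time of the afternoon, so as to avoid an influence of the circadian clock. The *della5x* line lacks the DELLA repressors of gibberellin signalling and carries the alleles *gai-t6* and *rga-t2* together with *rgl1-1*, *rgl2-1* and also *rgl3-4*. The *gai* line, in which a DELLA protein resists degradation, and *ga4*, a gibberellin synthesis mutant, were sampled after 8 h only. Each of the 12 combinations had 3 replicates, which gave 36 libraries. Because whole root pieces were sequenced, fewer cells of a type and less RNA per cell cannot be told apart. Gibberellin acts by removing DELLA proteins, so that *della5x* stands for constant gibberellin signalling, and *gai* and *ga4* for reduced signalling.

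Roots sense NaCl first as an osmotic and ionic shock, which is followed within minutes by calcium and reactive oxygen signals and then by synthesis of abscisic acid (ABA). Many of the genes that react in the first hour encode transcription factors, protein-turnover factors and signalling proteins with short-lived mRNAs. Some of these mRNAs stay high as long as the stress lasts, whereas others form a pulse.

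Pulses were the exception among the early genes of L*er*. The 1 h part of the rule and its level threshold were met by 471 genes, of which 390 were still above 0.3 at 8 h, 49 were in the window and 32 were below -0.3. Beyond the thresholds the nearest genes were AT1G20823, with 1.49 at 1 h, *KCO6*, with 0.30 at 8 h, AT1G64380, with -0.33 at 8 h, and AT5G49120, with 4.98 CPM on salt at 1 h. Just inside were AT1G03610, with 1.52 at 1 h, AT3G15200, with 0.28 at 8 h, *CCL*, with -0.30 at 8 h, and *PSB27*, with 5.77 CPM on salt at 1 h. A gene on either side of these limits differed little from its neighbour, and the boundary of the 49 genes is one of convention.

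Lists of 233 genes in 16 stress and hormone groups were set beside the rule. Of these, 64 were induced at 1 h in L*er*, 61 of them were above the window at 8 h, and *MYB74* and *MYB77* were the only 2 inside it. All 13 genes of a core ABA list, which holds clade A protein phosphatase genes, *NCED3*, *RD29A*, *RD29B* and *RAB18*, were induced at 1 h and stayed above the window. The same held for the 10 induced genes of the ERF and DREB list, the 7 of the WRKY list, the 5 of the NAC list and the 3 of the ZAT list. Over the whole count table, 390 of the 471 genes induced at 1 h were above the window too. Staying up was thus usual among early genes, and these counts are not read as a trait of the lists. No gene of the auxin or gibberellin lists met the 1 h part of the rule together with its level threshold. The gibberellin-inactivating genes *GA2OX2* (1.62, 4.08 CPM on salt) and *GA2OX8* (1.52, 3.46 CPM) passed 1.5 at 1 h but stayed under 5 CPM. The induced genes of these lists other than *MYB74* and *MYB77* thus lay outside the 49. The lists do not hold every gene of a family. The members *RAP2.1*, of the DREB type, *MYB20*, *MYB49* and *NCED9*, of ABA synthesis, were not listed.

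By their RefSeq annotation and known roles, 13 of the 49 genes encode transcription factors or their partners, 3 belong to clock and light signalling, 7 to protein turnover, 4 to signalling and defence, 8 to enzymes and transport, and 14 to stress, cell wall or unknown functions. The transcription factors were *MYB20*, *MYB49*, *MYB74* and *MYB77*, *ZFHD1*, *GATA2*, *HSFC1*, *CRF7*, *RAP2.1*, *COL4*, *CDF2*, the GRAS gene AT4G08250 and *KDR*. The MYB family was the largest group among them. On the chromosomes, 16 members lay on chromosome 1, 7 on chromosome 2, 11 on chromosome 3, 5 on chromosome 4 and 10 on chromosome 5. The divergent genes AT1G72840 and AT1G72850, both annotated as disease resistance genes of the TIR class, are separated by 29 bases. *PSB27* and AT1G03610 lie 937 bases apart on one strand. Of the 49 genes 18, or 36.7%, had a single exon, against 31.2% of the 388 annotated genes that stayed induced and 15% of 18779 genes with a mean of at least 1 CPM. Their median transcript length was 1391 bases, against 1540 and 1691 bases in those sets.

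Promoters, taken as 250 bases before to 50 bases after the gene start in TAIR10.1 (RefSeq), were searched on both strands for letters known from stress-responsive promoters. All 49 members had such a window, as had 28008 genes of the table. The G-box, CACGTG, which contains the ABA response element core ACGTG, occurred in 10 members (20.4%), in 26.7% of 389 genes that stayed induced and in 7.66% of all windows. The core ACGTG itself occurred in 19 members (38.8%), against 47.3% and 26.8%. The rapid stress response element CGCGTT, which overlaps the searched letters ACGCG, occurred in 5 members (10.2%), in 6.43% of the genes that stayed induced and in 3.46% of all windows. The W-box core TTGAC was in 59.2% of the members and in 50.5% of all windows, the longer TTGACC in 14.3% and 14%, the DRE core CCGAC in 20.4% and 15.1%, and ACGCG in 14.3% and 8.93%. For GCCGCC the shares were 2.04% and 2.59%, for the heat shock element GAANNTTC 10.2% and 11.5%, and for the auxin response element TGTCTC 18.4% and 14.1%. The evening element AAAATATCT of clock-regulated promoters, added after the values were seen because clock-linked genes were among the members, was in 5 members (10.2%), in 6.68% of the genes that stayed induced and in 2.80% of all windows. The CCA1-binding letters AAAAATCT, added at the same time, were in 8.16% of the members and 7.78% of all windows. These are matches of letters and not sites.

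The G-box matches of the 10 members follow, because the share of this motif was farthest from that of all windows in percentage points, though not as a ratio, each with 17 bases on either side, 5′ to 3′ on the strand of the gene, with the G-box in capitals.
*AT1G03610*, chr1:900571-900610, plus strand: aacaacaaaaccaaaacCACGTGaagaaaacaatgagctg
*NCED9*, chr1:29492879-29492918, minus strand: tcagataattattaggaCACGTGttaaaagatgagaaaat
*AT2G15960*, chr2:6946944-6946983, plus strand: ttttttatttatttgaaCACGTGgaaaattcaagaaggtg
*ERD15*, chr2:17269118-17269157, plus strand: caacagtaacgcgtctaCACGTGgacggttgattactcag
*INT1*, chr2:18000759-18000798, plus strand: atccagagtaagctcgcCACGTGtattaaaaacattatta
*PFA-DSP3*, chr3:607946-607985, minus strand: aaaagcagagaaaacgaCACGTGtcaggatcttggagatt
*AT4G01410*, chr4:577911-577950, plus strand: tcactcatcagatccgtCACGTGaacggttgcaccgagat
*COL4*, chr5:8589271-8589310, plus strand: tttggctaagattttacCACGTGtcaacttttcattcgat
*CDF2*, chr5:15878604-15878643, plus strand: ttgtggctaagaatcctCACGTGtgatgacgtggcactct
*AT5G54300*, chr5:22055563-22055602, minus strand: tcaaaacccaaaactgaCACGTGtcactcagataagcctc
The G-box starts 23 bases before the gene start in *ERD15* and 26 bases in *NCED9*, and as far as 169 bases in *COL4*. *INT1* holds 2 matches, of which the nearer one is printed.

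The rapid stress response element is shown for the 4 members in which it lies before the gene start, with CGCGTT or its reverse complement in capitals.
*ACA2*, chr2:12029497-12029536, plus strand: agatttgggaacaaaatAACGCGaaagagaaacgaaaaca
*ERD15*, chr2:17269108-17269147, plus strand: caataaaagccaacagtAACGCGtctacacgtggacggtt
*INT1*, chr2:18000692-18000731, plus strand: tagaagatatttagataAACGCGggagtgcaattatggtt
*AT5G11650*, chr5:3744629-3744668, plus strand: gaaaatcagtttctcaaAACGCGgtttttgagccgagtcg
In *ERD15* it lies 33 bases before the gene start, next to the G-box. *ERD15* and *INT1* were the members that held both the G-box and this element.

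The evening element is shown for its 5 members, with AAAATATCT or its reverse complement in capitals. AT2G15960 holds 2 matches, of which the nearer one is printed.
*AT1G21680*, chr1:7612753-7612791, plus strand: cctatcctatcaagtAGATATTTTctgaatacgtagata
*AT2G15960*, chr2:6947038-6947076, plus strand: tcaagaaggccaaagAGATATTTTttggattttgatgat
*ERD15*, chr2:17269018-17269056, plus strand: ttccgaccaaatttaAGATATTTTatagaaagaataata
*CCL*, chr3:9827574-9827612, plus strand: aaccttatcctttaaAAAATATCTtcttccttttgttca
*KMD4*, chr3:22142759-22142797, plus strand: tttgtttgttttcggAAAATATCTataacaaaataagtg
*CCL*, a gene whose unstable mRNA follows the circadian clock, and *KMD4*, whose F-box protein marks cytokinin response regulators for degradation, were among the 5 genes with the largest rise in L*er* at 1 h.

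Depth was similar in all libraries, with 16772984 to 23811804 counts each (median 18884857). Replicates differed by 4.66 to 95.7 times the variance that counting alone gives, so that no replicate pair agreed within sampling noise. All 9 root markers were at 1 CPM or more in every library, and the summed level of 6 shoot markers was 10.7 to 158 CPM, of which *LHCB1.1* had a median of 0 CPM. Of the libraries, *della5x* replicate 2 on salt at 1 h and replicate 3 on salt at 8 h stood apart from their group, with mean correlations of 0.925 and 0.956 with the other replicates. The first was at least 2 times below both other replicates for 7 members, and the second at least 2 times above both others for 7 members. In the first group the other replicates had 0.956 and 0.946, and in the second 0.968 and 0.972. Replicate 3 of *ga4* under mock conditions, with a correlation of 0.975, was also at least 2 times below both others for 7 members. How many of all genes departed as far in these libraries was not counted. Nothing particular to the members is therefore read from these counts.

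In L*er* the median over the 49 genes was 2.94 to 3.82 log2 CPM in the 3 mock libraries and 5.60 to 5.68 in the 3 salt libraries at 1 h. At 8 h it was 3.41 to 3.63 under mock conditions and 3.42 to 3.70 on salt. In *della5x* the median rose from 3.24 to 3.47 under mock conditions to 4.90 to 5.48 on salt at 1 h, and at 8 h it was 2.88 to 3.41 under mock conditions and 3.25 to 3.92 on salt. The *gai* libraries at 8 h had medians of 3.32 to 3.79 under mock conditions and 3.66 to 3.94 on salt, and the *ga4* libraries 3.21 to 4.03 and 3.72 to 3.91. Thus all 6 salt libraries of 1 h lay above the other 30 libraries, and at 8 h the mock and salt ranges overlapped in each genotype.

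**Figure D1:**
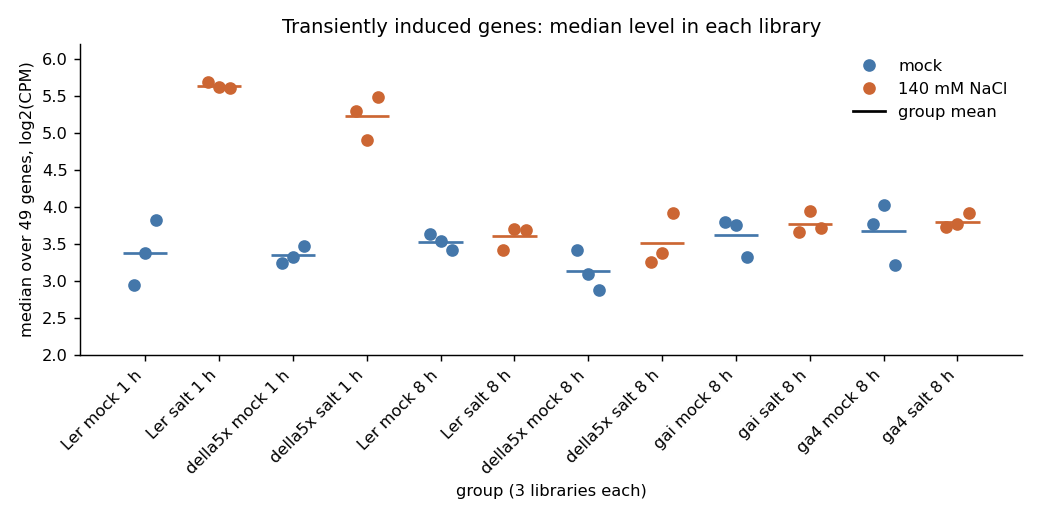
Median log2(CPM) over the 49 genes in each of the 36 libraries (points) by group (x axis), with the group mean as a line, mock in blue and 140 mM NaCl in orange. The 6 salt libraries of 1 h lie between 4.90 and 5.68, and every other library lies between 2.88 and 4.03.

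The rule values at 1 h in L*er* ran from 1.52 to 3.79, with a median of 1.78. *NCED9*, for 1 of the dioxygenases of ABA synthesis, had the largest value, 3.79, and was at 0.417, 0.439 and 0.314 CPM under mock conditions and at 15.7, 8.79 and 10.9 CPM on salt. It is a different gene from *NCED3*, which stayed induced. It was followed by AT5G54300, of unknown function, with 3.27, by AT2G15960, annotated as a stress-induced protein, with 3.26, by *KMD4*, with 2.96, and by *CCL*, with 2.87. The highest level on salt was that of *ERD15*, an early dehydration gene whose product dampens ABA responses, at 824, 701 and 708 CPM against 222, 279 and 266 CPM under mock conditions. AT1G21680 (376 CPM on salt), AT3G10020 (348 CPM), the aspartyl protease gene AT1G66180 (196 CPM) and *ACHT4* (194 CPM), for a plastid thioredoxin, came next. The 5 genes of the largest rise had mock means of at most 8.12 CPM, and the 5 most abundant ones had rule values of 1.54 to 1.87.

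At 8 h the same genes in L*er* lay between -0.30 and 0.28 by the rule, with a median of 0.07. *ERD15* was at 253, 259 and 249.7 CPM under mock conditions and at 236, 243 and 250.4 CPM on salt. *KMD4* was at 11.9, 11.3 and 6.99 CPM under mock conditions and at 7.05, 12.9 and 15.2 CPM on salt. The level of the mock libraries of L*er* also moved between the times, by -1.47 for *LNK4* to 0.86 for *KDR*, with a median of 0.12. *LNK4*, a clock gene of the LNK family, was at 2.86, 6.21 and 1.67 CPM under mock conditions at 1 h and at 1.16, 0.903 and 0.859 CPM at 8 h.

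**Figure D2:**
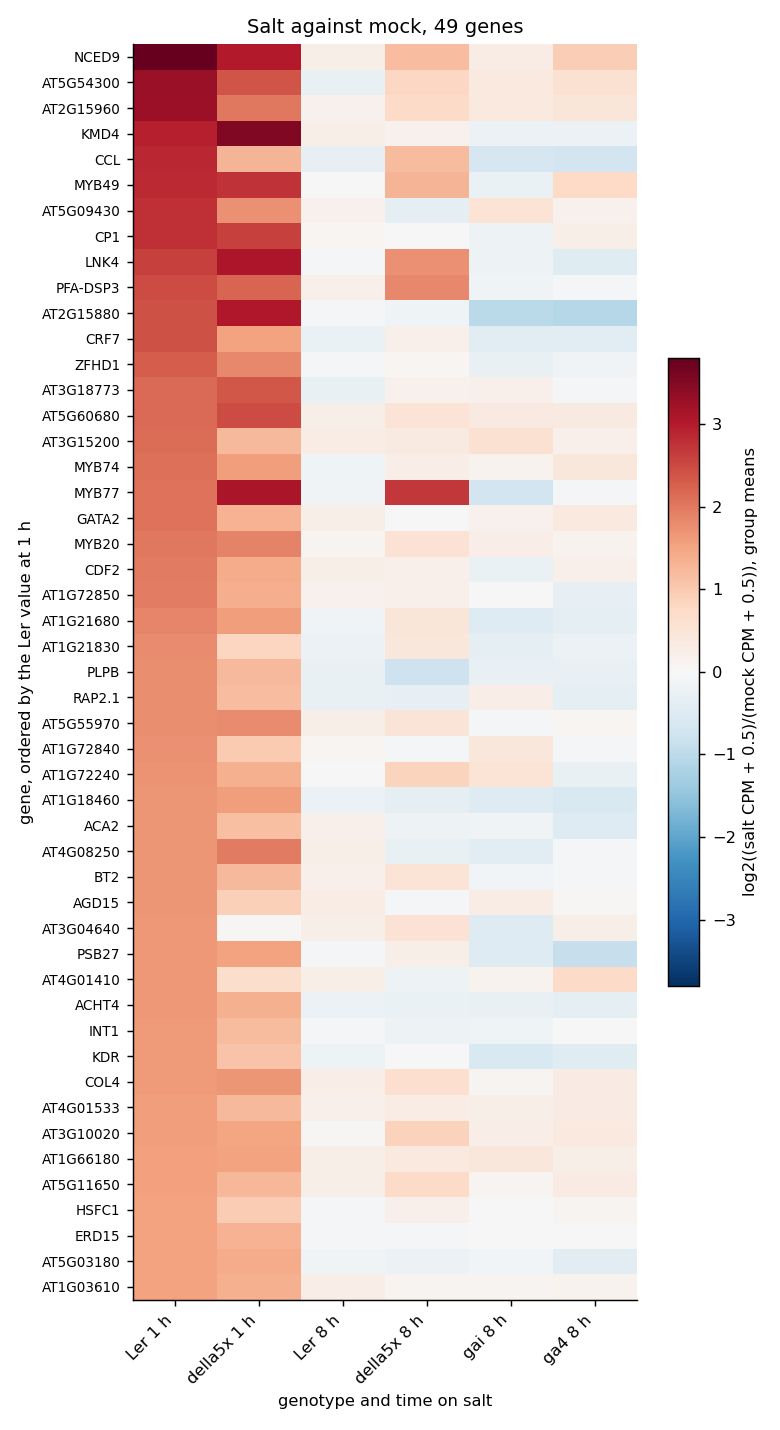
Salt against mock for the 49 genes (rows, ordered by the L*er* value at 1 h) in the 6 pairs of groups (columns), as log2((salt CPM + 0.5)/(mock CPM + 0.5)) of group means by colour. The L*er* columns were used to choose the genes. The *della5x* column at 1 h is red in all but AT3G04640 (0.03), and the 8 h columns are paler, with 16 genes above 0.5 in *della5x*, led by *MYB77* (2.70), 3 in *gai* and 4 in *ga4*.

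Whether the early rise needs DELLA proteins was addressed with *della5x* at 1 h. Of the 49 genes 42 rose and none fell by edgeR (quasi-likelihood test, Benjamini-Hochberg adjustment over all genes tested, called where the adjusted p was below 0.05 and the log2 fold change past 0.5), that is 85.7%, where 6.62% of all 20073 genes tested rose. The log2 fold change was above 0 in all 49, with a median of 1.49 against 0.00 over all genes tested. An unadjusted p under 0.05 was found for 47 members, and in either direction for 5291 of all 20073 genes. For 43 members all 3 salt libraries lay above all 3 mock libraries, as they did for 14.8% of all genes with a mean of at least 1 CPM. The count was 45 by DESeq2, 25 in a fit of the 6 libraries alone, 27 without replicate 1 of *della5x* under mock conditions and 44 without the salt library that stood apart.

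The 3 members with the smallest p rose by 2.51 ± 0.17 (AT5G60680), 2.78 ± 0.22 (*MYB49*) and 2.25 ± 0.18 (*PFA-DSP3*) on the log2 scale (estimate ± SE, edgeR, n = 3 per group), with adjusted p of 1.26e-05, 3.60e-05 and 3.93e-05. The SE here and below was derived from the F statistic of the test and is approximate. *MYB49*, for an R2R3 MYB factor of the same subgroup as *MYB74*, was at 19.9, 19.7 and 12.6 CPM under mock conditions and at 121, 128 and 109 CPM on salt. *PFA-DSP3*, for a small phosphatase of the dual-specificity type, was at 10.4, 11.2 and 10.6 CPM under mock conditions and at 44.0, 64.9 and 44.1 CPM on salt. In both genes the salt and mock libraries were far apart, and the L*er* levels on salt, 115, 101 and 114 CPM for *MYB49* and 50.9, 49.6 and 48.0 CPM for *PFA-DSP3*, were close to those of *della5x*. *NCED9* rose by 3.43 ± 0.35 (adjusted p = 0.000146), from 1.62, 1.17 and 1.1 CPM to 10.4, 21.1 and 10.7 CPM. *KMD4* had the largest rise in *della5x*, 3.69 ± 0.44 (adjusted p = 0.000396), from 4.20, 6.01 and 1.80 CPM to 55.2, 41.7 and 56.9 CPM. *ERD15* rose by 1.33 ± 0.17 (adjusted p = 0.000658), from 187, 285 and 332 CPM to 680.3, 662 and 680.0 CPM.

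By role, 12 of the 13 transcription factors, 6 of the 7 turnover genes, all 4 signalling and defence genes, 7 of the 8 enzyme and transport genes, 11 of the 14 stress, wall and unknown genes and 2 of the 3 clock and light genes rose in *della5x* at 1 h. The MYB factors rose by 3.24 ± 0.58 (*MYB77*), 2.78 ± 0.22 (*MYB49*), 1.93 ± 0.23 (*MYB20*) and 1.61 ± 0.22 (*MYB74*). The value of *MYB77* was carried by replicate 2 on salt, the library that stood apart, and was 1.99 without it, still called and below that of *MYB49*. Of the whole MYB list of 12 genes, 7 rose, among them *MYB102* (5.55 ± 0.74), *MYB41* (2.22 ± 0.26) and *MYB73* (1.31 ± 0.20). Over the 16 lists, 88 of 222 tested genes rose and 3 fell, with a median of 1.31. Of all 20073 genes tested, 1328 rose and 707 fell. 

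The 7 members not called were *GATA2* (1.33 ± 0.43, adjusted p = 0.0687), AT1G21830 (0.86 ± 0.29), *BT2* (1.23 ± 0.44), *ACA2* (1.17 ± 0.47), *CCL* (1.44 ± 0.61), AT4G01410 (0.70 ± 0.35) and AT3G04640 (0.05 ± 0.25). *GATA2*, for a light-regulated GATA factor, was at 84.4, 19.5 and 105 CPM on salt against 32.2, 25.6 and 24.6 CPM under mock conditions. The low value is that of replicate 2, the library that stood apart, and without it the difference was 1.77 with an adjusted p of 5.85e-05. *CP1*, for a cysteine protease, was low in the same library, at 51.4, 7.89 and 99.7 CPM on salt, and *MYB77* was high in it, at 22.4, 86.2 and 11.9 CPM. The log2 fold change of *CP1* was 2.67 with this library and 3.17 without it. In the same library the 9 root markers summed to 289 CPM against 497 and 549 CPM in the other replicates, whose part in these values was not tested.

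AT3G04640, annotated as a glycine-rich protein and named after its values were seen, was low in every *della5x* library and had the smallest 1 h response of the members there, 0.03 on the scale of the rule. It was at 22.0, 14.7 and 17.8 CPM under mock conditions and at 58.8, 57.7 and 57.9 CPM on salt in L*er* at 1 h. In *della5x* it was at 1.86, 2.67 and 1.27 CPM under mock conditions and at 2.1, 1.73 and 2.14 CPM on salt at 1 h, and at 0.797 to 3.19 CPM in the 6 libraries of 8 h. In *gai* it was at 24.9, 24.1 and 19 CPM under mock conditions at 8 h, and in *ga4* at 13.3, 20.5 and 10.8 CPM. No *della5x* library reached the lowest level of the other genotypes. The comparison with L*er* has no test, because the L*er* libraries chose the gene, and a difference of sequence between the lines at this gene was not tested.

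On the scale of the rule, the 1 h value in *della5x* was smaller than in L*er* for 40 members and larger for 9, with a median difference of -0.37, a lowest difference of -1.62 (AT3G04640) and a highest of 1.02 (*MYB77*). Since the L*er* value had to pass 1.5, a smaller value in any other line is favoured by the choice, and nothing is read from this count. Under mock conditions at 1 h the median difference of *della5x* from L*er* was 0.07, and on salt -0.33.

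Whether the members also return in a line without DELLA proteins was tested by the salt response of *della5x* at 8 h minus that at 1 h. It was below 0 for 47 of the 49 genes, with a median of -1.26 against 0.00 over all genes tested. It was significantly smaller for 15 members (30.6%), where 2.35% of 20177 genes were, and larger for none. At an unadjusted p under 0.05 it was smaller for 32 members, where 4075 of all genes had such a p in either direction. The count of members called was 25 by DESeq2, 26 in a fit of all 36 libraries, 25 without replicate 2 on salt at 1 h and 31 without both libraries that stood apart. All 15 genes were among those called in each of these fits. The count was 10 without replicate 1 or 2 of *della5x* under mock conditions at 8 h or replicate 2 on salt at 8 h. Values larger than 0 were those of *CCL* (0.34 ± 1.29) and AT3G04640 (0.73 ± 0.66).

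AT1G18460, annotated as an alpha/beta-hydrolase, had the smallest p, with a difference of -1.89 ± 0.17 (adjusted p = 0.000334). In *della5x* it was at 37.2, 49.7 and 44.8 CPM under mock conditions and 133, 137 and 129 CPM on salt at 1 h, and at 41.0, 38.2 and 33.4 CPM and 26.5, 31.5 and 30.8 CPM at 8 h. The salt libraries thus lay above all mock libraries at 1 h and below all of them at 8 h. *ACHT4* had -1.53 ± 0.18 (adjusted p = 0.00144), with 58.0, 61.6 and 61.3 CPM under mock conditions and 159, 125 and 176 CPM on salt at 1 h, and 69.1, 73.5 and 60.2 CPM and 55.3, 52.5 and 63.9 CPM at 8 h. AT5G60680 had -1.91 ± 0.28 (adjusted p = 0.00360), with 30, 32.5 and 23.9 CPM under mock conditions and 139.9, 207 and 143 CPM on salt at 1 h, and 35.5, 34.5 and 22.4 CPM and 43.3, 44.8 and 45.7 CPM at 8 h. For AT5G60680 the return was not complete, and the salt libraries at 8 h stayed above the mock libraries. This was not particular to *della5x*. At 8 h the mock and salt libraries were at 39.1 to 42.2 and 42.5 to 52.4 CPM in L*er*. In *gai* they were at 34.6 to 49.3 and 52.7 to 57.9 CPM, and in *ga4* they overlapped.

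The differences of largest size were those of *KMD4* (-3.44 ± 0.66, adjusted p = 0.0121) and AT2G15880 (-3.32 ± 0.53, adjusted p = 0.00517), which is annotated as a leucine-rich repeat protein. *KMD4* was at 5.32, 4.87 and 1.38 CPM under mock conditions and at 3.25, 5.21 and 4.61 CPM on salt at 8 h in *della5x*. The other called members were *PLPB*, for a blue-light sensor of the LOV type, *ZFHD1*, for a homeodomain factor of the drought response, *RAP2.1*, for a DREB-type repressor, *INT1*, for the vacuolar inositol carrier, *ERD15*, *MYB20*, *COL4*, AT1G21680 and the RING genes AT5G03180 and AT5G55970. By role, 4 of 13 transcription factors, 3 of 7 turnover genes, 3 of 8 enzyme and transport genes, 1 of 3 clock and light genes, 4 of 14 stress, wall and unknown genes and none of 4 signalling and defence genes were called.

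**Figure D3:**
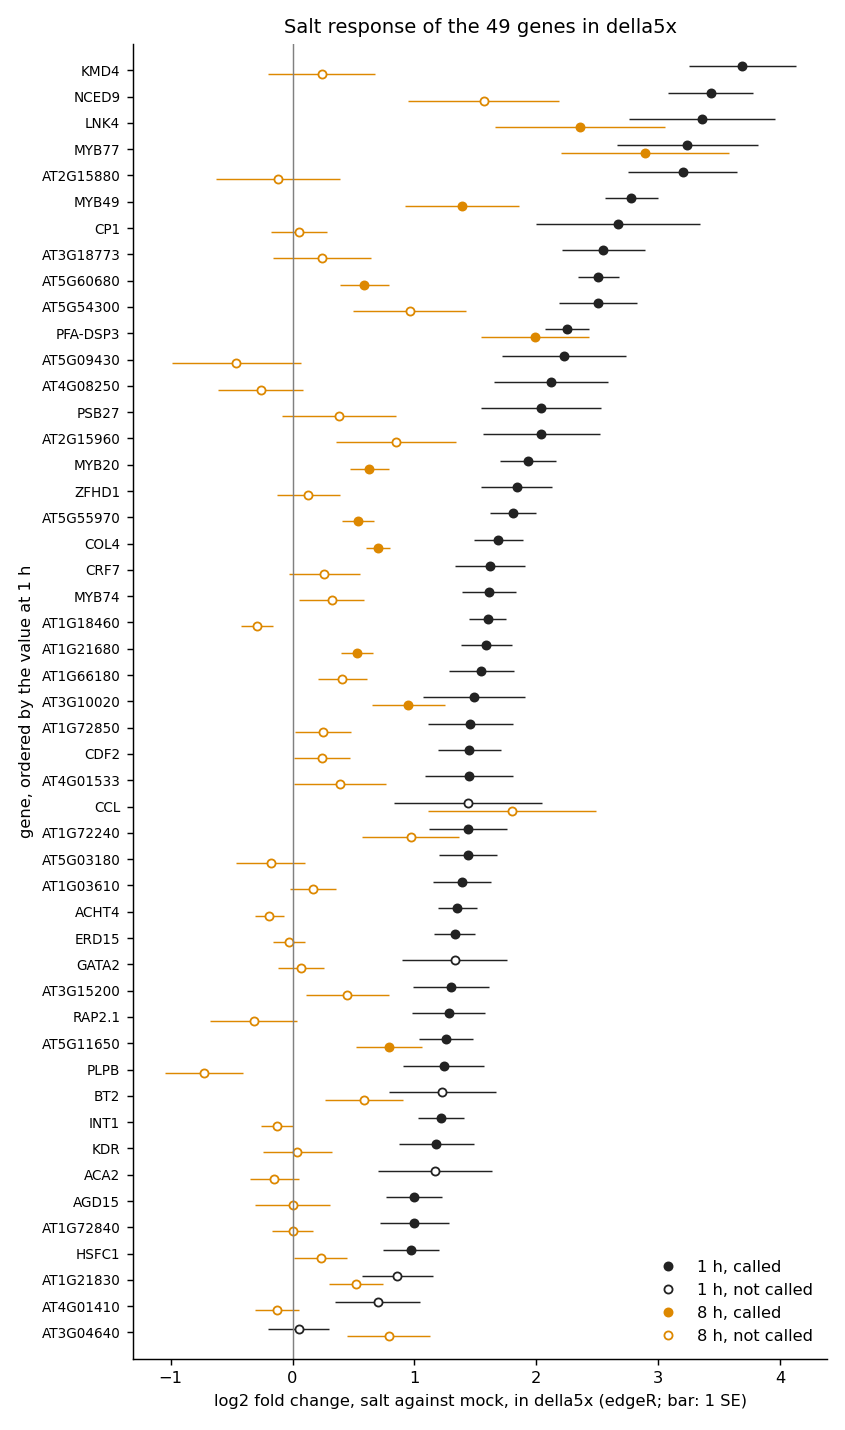
Log2 fold change of salt against mock in *della5x* by edgeR (x axis, bars are 1 SE, n = 3 per group) for the 49 genes (y axis, ordered by the value at 1 h), at 1 h in black and at 8 h in orange, filled where called. The 1 h points run from 0.05 to 3.69 and the 8 h points from -0.73 to 2.89, and the open 8 h point of *CCL* (1.80) is the highest that was not called.

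The mock level of the members in *della5x* itself was compared between the times. At 8 h 1 member was lower, AT1G21680 (-0.81 ± 0.18, adjusted p = 0.0420), where 1.72% of all genes were lower, and none was higher, where 0.377% of all genes were, with 0 members higher and 6 lower at an unadjusted p under 0.05. Over all 20177 genes, 3414 had such a p in either direction. DESeq2 called 3 members lower and none higher. AT1G21680 was at 106, 148 and 88.1 CPM at 1 h and at 80.0, 66.0 and 53.6 CPM at 8 h, and the call was lost without any of the libraries except replicate 3 of 1 h. The smaller response at 8 h therefore came with mock levels that moved by a median of -0.21 on the log2 scale.

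At 8 h 11 of the 49 members were raised on salt in *della5x* (22.4%), where 13.7% of 20355 genes were, and none was lowered, where 9.03% were. At an unadjusted p under 0.05, 18 were higher and 2 lower, a share close to that over all genes (8246 of 20355), and DESeq2 called 13 raised and none lowered. The median log2 fold change was 0.26, against 0.00 over all genes tested. The 3 with the smallest p were *COL4* (0.70 ± 0.10, adjusted p = 1.24e-05), *PFA-DSP3* (1.99 ± 0.44, adjusted p = 0.00144) and AT5G55970 (0.54 ± 0.13, adjusted p = 0.00272). The others were *MYB77*, AT1G21680, *MYB20*, *LNK4*, AT3G10020, *MYB49*, AT5G60680 and AT5G11650.

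*COL4*, for a B-box protein of the CONSTANS family, was at 27, 25.2 and 24.5 CPM under mock conditions and at 35.7, 41.7 and 42.5 CPM on salt, so that all salt libraries lay above all mock libraries by a modest step. *MYB20*, for a factor of secondary wall formation, was at 10.5, 9.34 and 12 CPM and at 16.1, 14.7 and 16.7 CPM. AT1G21680 was at 80.0, 66.0 and 53.6 CPM and at 83.1, 98.0 and 95.8 CPM. These 3 genes were the only members still called without replicate 3 on salt, the library that stood apart.

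*MYB77*, for a factor of auxin-regulated lateral root growth, was at 3.91, 4.21 and 3.24 CPM under mock conditions and at 3.88, 7.13 and 71.1 CPM on salt at 8 h, where replicate 3 was at least 9.39 times above both others. *PFA-DSP3* was at 5.95, 5.14 and 3.86 CPM and at 7.31, 7.94 and 42.1 CPM. *MYB49* was at 6.97, 8.02 and 6.39 CPM and at 8.52, 7.63 and 38.1 CPM. Each of these 3 genes was high in 1 salt library only. *LNK4* was at 0.736, 0.709 and 0.715 CPM and at 0.580, 1.67 and 8.57 CPM, and AT5G11650, annotated as an alpha/beta-hydrolase, at 20.2, 20.1 and 24.5 CPM and at 19.1, 24.2 and 65.5 CPM. Without replicate 3 the log2 fold changes were 0.60 for *MYB77* (adjusted p = 0.335), 0.68 for *PFA-DSP3* (0.0510), 0.24 for *MYB49* (0.687), 0.71 for *LNK4* (0.448) and 0.06 for AT5G11650 (0.814), by edgeR with the adjusted p in parentheses. AT3G10020 (0.88, adjusted p = 0.0578), AT5G60680 (0.58, 0.0600) and AT5G55970 (0.43, 0.0228, short of the fold change threshold) lost their call with little change in value. In that library the root markers summed to 401 CPM against 510.3 and 476 CPM in the other replicates, and the shoot markers to 10.7 CPM against 17.3 and 19.7 CPM, whose part in the result was not tested.

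**Figure D4:**
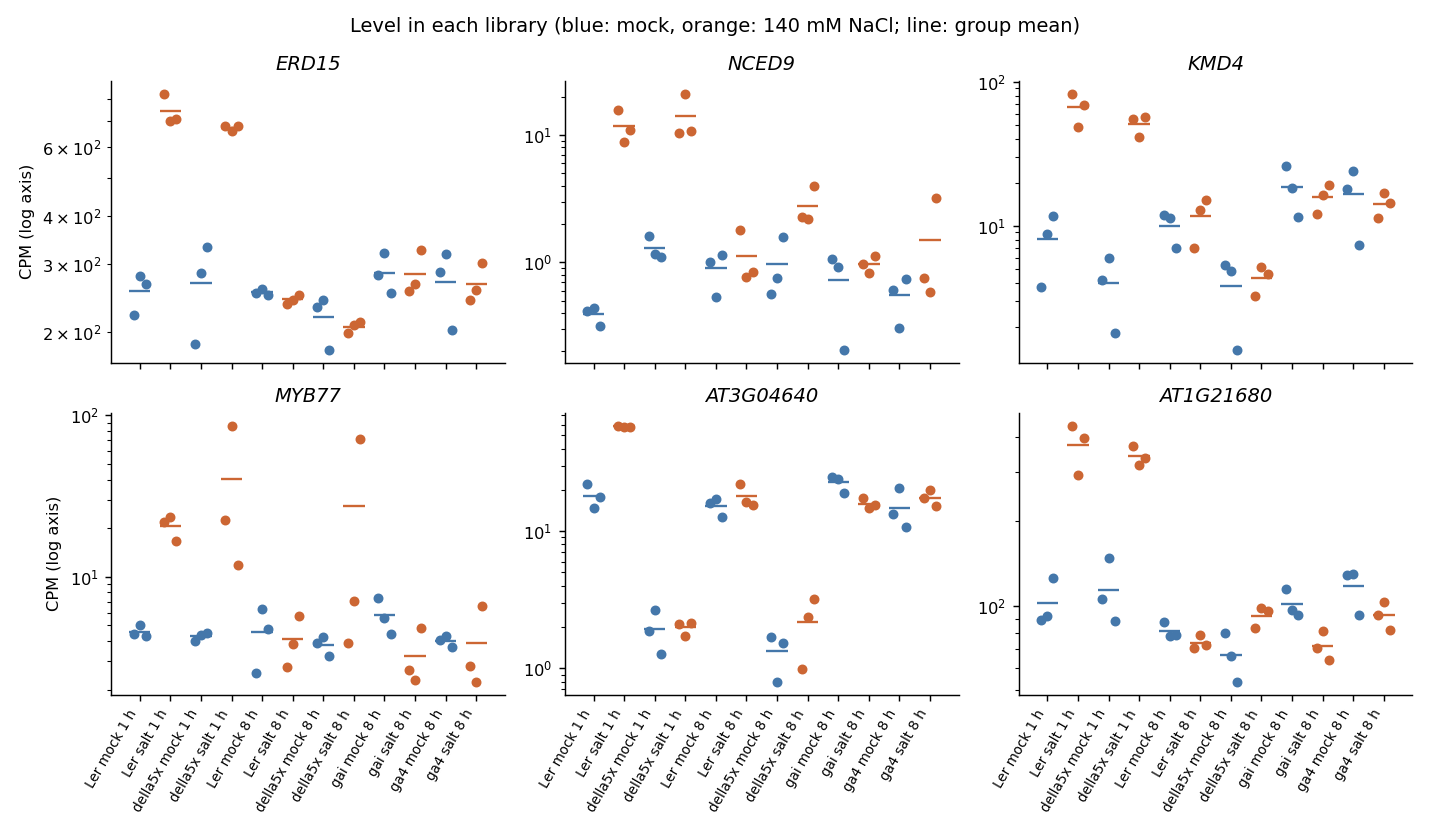
CPM (log axis) of 6 members in every library of the 12 groups (x axis), with the group mean as a line, mock in blue and 140 mM NaCl in orange. *MYB77* is near 71.1 CPM in 1 of the 3 *della5x* salt libraries of 8 h and at most 7.13 CPM in the other 2, and AT3G04640 stays at or below 3.19 CPM in all *della5x* libraries.

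Reduced gibberellin signalling was represented by *gai* and *ga4* at 8 h. In *gai* none of the 49 members was raised or lowered by edgeR, where 10.6% of 20355 genes were raised and 8.35% lowered, with 3 higher and 5 lower at an unadjusted p under 0.05 and none called by DESeq2. AT1G18460 and AT1G21680 had an adjusted p under 0.05 with a log2 fold change of -0.48 each, short of the threshold. The median was -0.07, and the mock and salt libraries overlapped for 40 members, with 3 above and 6 below, where 20.4% of all genes with a mean of at least 1 CPM were above and 19.9% below. In *ga4* 1 member was raised, where 10.7% of all genes were, and 1 lowered, where 9.01% were, with a median of 0.01. By edgeR *COL4* (0.32, adjusted p = 0.0193) and *ACHT4* (-0.36, adjusted p = 0.0266) in *ga4* were short of the fold change threshold. At an unadjusted p under 0.05, 4 members were higher and 6 lower in *ga4*. Over all 20355 genes, 7460 in *gai* and 7453 in *ga4* had such a p in either direction.

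AT4G01410, annotated as an LEA hydroxyproline-rich glycoprotein, was the raised member, at 7.02, 8.40 and 6.43 CPM under mock conditions and at 12.7, 12.1 and 12.5 CPM on salt in *ga4* (0.79 ± 0.19, adjusted p = 0.00291). In *gai* it was at 13.4, 12.9 and 13.6 CPM and at 15.7, 15.4 and 13.1 CPM (0.15 ± 0.18). AT1G18460 was the lowered member, at 48.1, 50.7 and 44.6 CPM and at 26.2, 33.2 and 36.6 CPM in *ga4* (-0.56 ± 0.13, adjusted p = 0.00300), and the call was lost without replicate 1 on salt. In *gai* it was at 46.3, 54.4 and 48.2 CPM and at 32, 34.9 and 38.9 CPM, a difference of -0.48 ± 0.13 that did not pass the fold change threshold. On salt the hydrolase gene was thus below all mock libraries in *della5x*, *gai* and *ga4* alike.

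AT2G15880 had the lowest value in both lines without a call, with 21.2, 8.75 and 8.49 CPM under mock conditions and 5.81, 6.98 and 5.29 CPM on salt in *gai* (-1.08 ± 0.48), and 21.8, 21 and 4.37 CPM and 8.81, 9.0 and 3.62 CPM in *ga4* (-1.11 ± 0.47). In *ga4* replicate 3 under mock conditions was the low one, and without it the difference was -1.55 with an adjusted p of 0.00839. That library was at least 2 times below both other replicates for 7 members. Shoot markers summed to 122 to 158 CPM under mock conditions and 46.7 to 100.1 CPM on salt in *gai*, and to 40.9 to 124 CPM and 27.2 to 65.9 CPM in *ga4*, whose part in the lowered members was not tested.

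The salt responses of *gai* and *ga4* at 8 h were set against that of *della5x*. No member differed in *gai* by edgeR, where 0.0295% of all genes did, and none in *ga4*, where 0% did. At an unadjusted p under 0.05, 10 members were lower in *gai* than in *della5x* and none higher, and in *ga4* 10 were lower and 1 higher. The lowest values were those of *MYB77* in *gai* (-3.72) and *LNK4* in *ga4* (-3.00). Both genes were high in replicate 3 of *della5x* on salt, the library that stood apart. How far the counts at the unadjusted p rest on that library was not determined. Over all 20355 genes 1391 and 1112 had such a p in either direction. DESeq2 called AT1G21680 in both (-1.02 in *gai*, adjusted p = 0.00105, and -0.84 in *ga4*, adjusted p = 0.0455) and *COL4* in *gai* (-0.60, adjusted p = 0.0403). AT1G21680 was at 115, 97.0 and 92.7 CPM under mock conditions and at 70.5, 81.5 and 64.3 CPM on salt in *gai*, and at 129, 129.8 and 93.1 CPM and 92.9, 103 and 81.9 CPM in *ga4*. In edgeR its differences from *della5x* were -1.01 ± 0.19 (adjusted p = 0.0562) and -0.85 ± 0.19 (adjusted p = 0.381).

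The 49 genes were set beside the other early genes of L*er*, which the same libraries divided by their 8 h value. In *della5x* at 1 h, 81.8% of the 390 genes that stayed up in L*er* rose, and 53.1% of the 32 genes that went below -0.3. At 8 h, 93.3% of the 390 were raised in *della5x*, 76.9% in *gai* and 80.5% in *ga4*, against 22.4%, 0% and 2.04% of the 49. Of the 32, 34.4% were lowered in *della5x*, 28.1% in *gai* and 37.5% in *ga4*. In *della5x* the response was smaller at 8 h than at 1 h for 5.13% of the 390, with a median of 0.07, and for 50.0% of the 32, with a median of -2.26. The split that the L*er* libraries made at 8 h was thus seen in the libraries of the other 3 genotypes as well. The difference between these sets of genes was not tested.

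**Figure D5:**
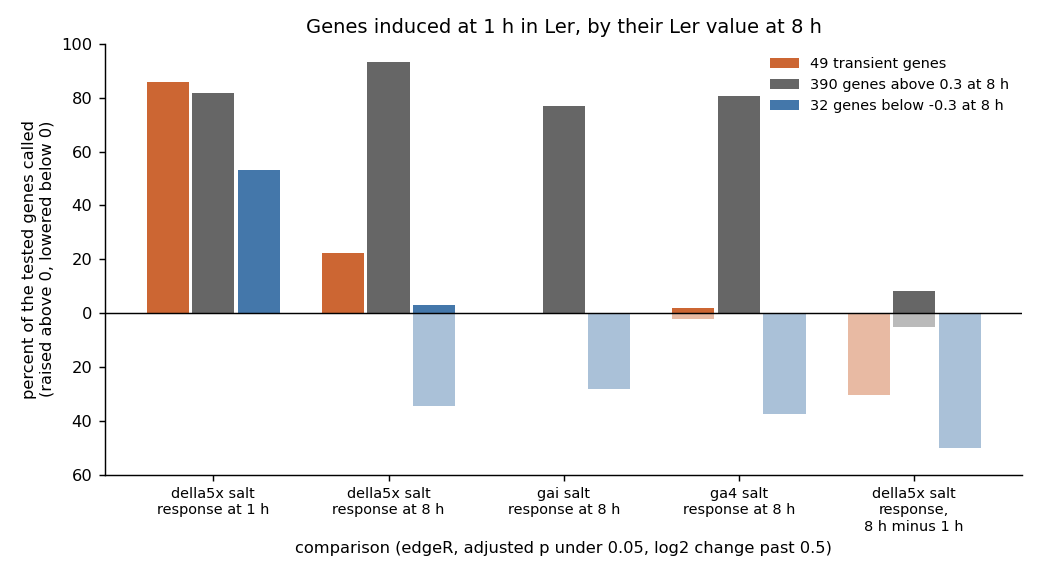
Percent of the tested genes called raised (above 0) or lowered (below 0, paler) by edgeR in 5 comparisons (x axis), for the 49 transient genes, the 390 genes above 0.3 and the 32 genes below -0.3 in L*er* at 8 h. In the last comparison, above 0 means a larger response at 8 h. The 390 genes reach 93.3%, 76.9% and 80.5% raised at 8 h, where the 49 reach 22.4%, 0% and 2.04%.

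Of the lists, the core ABA genes were raised in *della5x*, *gai* and *ga4* at 8 h in 13 of 13 cases each, with medians of 4.18, 2.93 and 3.04. Of the 390 genes that stayed up in L*er*, 93.3%, 76.9% and 80.5% were raised in these lines. In *della5x* the response of 3 of these 13 genes was called larger at 8 h than at 1 h and that of 1 smaller. The larger ones were those of *RD29A* (3.05 ± 0.37), *HAI2* (2.86 ± 0.68) and *HAI1* (1.27 ± 0.26). The smaller one was that of *NCED3*, the main ABA synthesis gene of stressed tissue (-1.29 ± 0.29, adjusted p = 0.0270). *NCED3* was still raised by 4.18 ± 0.26 at 8 h. *NCED9* was at 0.566, 0.753 and 1.57 CPM under mock conditions and at 2.26, 2.17 and 3.95 CPM on salt at 8 h (1.57 ± 0.62, not called). Among the MYB genes of the list *MYB73* had a smaller response at 8 h (-1.36 ± 0.35, adjusted p = 0.0446), and for *MYB74* the difference was -1.29 ± 0.36 (adjusted p = 0.0623). *MYB74* was at 15.5, 16.5 and 19.1 CPM under mock conditions and at 15.7, 16.7 and 29 CPM on salt in *della5x* at 8 h, where 2 of 3 salt libraries lay within the mock range.

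Reads of overlapping genes could be shared. *HSFC1* overlaps a long noncoding gene on the opposite strand by 1808 bases, *KMD4* such a gene by 1389 bases, AT1G72850 by 1189 bases and AT5G54300 by 344 bases. AT3G18773 and AT1G18460 overlap a protein-coding gene on the opposite strand, by 845 and 419 bases. *KMD4* also overlaps one there, AT3G59950, by 160 bases, which had a mean of 56.2 CPM over the libraries. *LNK4* and AT5G09430 overlap a neighbour on the same strand, by 13 and 59 bases. *ZFHD1* and AT3G15200 had short overlaps on the opposite strand, as had AT5G54300 with a protein-coding gene (60 bases). The noncoding partners of *KMD4*, AT5G54300 and *ZFHD1* and the partner of AT3G18773 are absent from the count table. Since the counting mode is not given in the sources used here, reads of these members and of their partners cannot be told apart.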

How the data were processed

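The deposited values are raw counts per gene of 36 libraries, which the authors made with fastp (trimming), HISAT2 (alignment to TAIR10) and HTSeq (counting). The counting mode and strand setting are not given in the sources used here. The groups follow the labels, with 3 libraries a group, which the paper describes as biological replicates. The p-values rest on the spread between replicates, pooled over the groups of a fit.

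From these counts, CPM on library totals (prior 0.5) gave the rule values. Tests used edgeR 4.0.16 (filterByExpr, min.count 10 and min.total.count 15, TMM, glmQLFit and glmQLFTest, Benjamini-Hochberg adjustment over all genes tested) under R 4.3.3, and DESeq2 1.42.0 was an alternative. Calls needed both an adjusted p below 0.05 and a change past 0.5 on the log2 scale. The edgeR test gives no SE. The SE printed is the absolute log2 fold change divided by the square root of the F statistic, an approximation. The 1 h fit used all libraries of 1 h and the 8 h fits all of 8 h, so that the L*er* libraries share the estimate of the spread but enter no tested contrast, and the comparisons between times the 12 *della5x* libraries. The code was tested on simulated data. Alternatives were RLE size factors, no filter, other sets of libraries and leaving out each library.

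The members and lists were chosen with earlier results of these data known. Genes were named when they were members found in the lists, the 5 highest in level or in rise in L*er*, the 3 with the smallest p among those called in each comparison and direction, or nearest to a threshold of the rule. Other genes named, such as AT3G04640, *GATA2*, *CP1*, *BT2*, *LNK4*, *MYB20* and AT2G15880, were chosen after their values were seen. Names and roles follow RefSeq (TAIR10.1), where 28009 of 28775 genes matched.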

Additional observations from a re-analysis of the deposited data

Results flagged for a closer look

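Within *della5x*, 15 of the 49 members had salt responses that differed between the times by a test of the difference itself (8 h minus 1 h, edgeR, log2 scale). The differences were -3.44 for *KMD4*, -3.32 for AT2G15880, -1.96 for *PLPB*, -1.91 for AT5G60680, -1.89 for AT1G18460, -1.70 for *ZFHD1*, -1.61 for AT5G03180, -1.59 for *RAP2.1*, -1.53 for *ACHT4*, -1.35 for *ERD15*, -1.34 for *INT1*, -1.30 for *MYB20*, -1.27 for AT5G55970, -1.05 for AT1G21680 and -0.99 for *COL4*. All 15 were smaller at 8 h. No group had more than 3 libraries, so that single libraries were not tested as far from their group.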

How the results depend on the processing

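No paired analysis was possible because the labels give no replicate numbers that are shared between groups. Of 815 pairs of a called member and an alternative, 670 kept the call, 145 lost it and none changed direction. In fits of the 6 libraries of a contrast alone, 25 members were raised in *della5x* at 1 h and 7 at 8 h, and 2 were lowered in *gai*. For the smaller response of *della5x* at 8 h than at 1 h, 26 members were called with all 36 libraries, 25 with DESeq2 and 31 without both libraries that stood apart, an alternative chosen after seeing the data. For the lower mock level at 8 h, 3 were called with all 36 libraries and 3 with DESeq2. Between *gai* and *della5x*, DESeq2 called 2, and RLE size factors and the table with no filter 1 each. Between *ga4* and *della5x*, DESeq2 called 1. Leaving out each library gave 27 to 44 members raised in *della5x* at 1 h, 3 to 14 raised and 0 to 1 lowered at 8 h, 0 to 1 raised and 0 to 2 lowered in *gai*, 1 to 3 lowered in *ga4*, 10 to 25 smaller at 8 h than at 1 h, and 0 to 1 lower under mock conditions at 8 h. The causes were not tested. The rule applied to TMM-scaled libraries chose 48 genes, 46 of them among the 49, and without each L*er* library in turn it chose 42 to 56, with 38 to 48 of the 49. Depth limits the low members: *NCED9*, *LNK4*, AT5G09430, *PSB27* and *CCL* had means below 1 CPM in some groups. *CCL* was at 1.42, 0 and 0.667 CPM in *della5x* under mock conditions at 8 h, the base of its 8 h value there.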
